A study of Canis lupus familiaris with 222 samples.

Results

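This report describes 60 canine gene identifiers whose expression across mammary tumors rose together with the identifier ENSCAFG00000009558, called the reference identifier here. The members were chosen by their measured values. Among 24580 identifiers in the expression table, 14584 had a mean of at least 0.5 FPKM (sequenced fragments scaled to transcript length and to library size) over all but 1 of 158 tumors, and the 60 with the largest Pearson correlation r between their log2(FPKM + 1) and that of the reference identifier were kept. The reference identifier itself was left out, as was ENSCAFG00000006073, an identifier set aside by the choice of members, whose r of 0.434 would have ranked 243. All 60 members had a positive r. No identifier fell with the reference identifier as strongly as the members rose with it, since the most negative r was -0.52.

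The samples came from a cohort of canine mammary tumors (CMTs), the spontaneous tumors of the dog mammary gland, sequenced as poly(A) RNA from bulk tissue of female dogs aged 2 to 19 years (median 12, 151 dogs with a recorded age). Without the 1 complex adenoma that had no entry in the study's clinical table, the tumors comprised 77 simple tumors (18 simple adenomas and 59 simple carcinomas), 49 complex tumors (16 complex adenomas and 33 complex carcinomas), 23 mixed tumors (10 benign mixed tumors and 13 carcinomas in benign mixed tumor), 3 osteosarcomas, 3 carcinosarcomas, 1 fibrosarcoma and 1 spindle cell carcinoma. The other 64 libraries were normal mammary tissue taken from dogs whose tumor was also sequenced. No treatment, genotype or engineered allele was involved, and breed and neutering status varied within the cohort.

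As background, a simple CMT is built of a single kind of epithelial cell, whereas a complex CMT holds both luminal epithelium and proliferating myoepithelium, the contractile layer that surrounds the ducts. A mixed CMT also contains cartilage or bone. A mammary osteosarcoma is a malignant tumor that lays down bone matrix, and a carcinosarcoma joins malignant epithelium with malignant mesenchyme. The expression table gives Ensembl identifiers without symbols and the reference genes at hand carried no Ensembl identifiers, so the members are given by identifier or by rank of r, and neither their functions nor cell type markers could be read. The histological labels were therefore not checked against marker genes. In bulk tissue, fewer cells of a type and less RNA per cell cannot be told apart.

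The reference identifier was very high in a few tumors and close to 0 in most. Its values in the 3 osteosarcomas were 0.0428, 1554 and 895.8 FPKM, and in the 3 carcinosarcomas 596.4, 1648 and 0.499 FPKM. Each of these groups therefore held a pair of tumors with a very high level and 1 tumor in which the transcript was almost absent. The fibrosarcoma had 0.116 FPKM and the spindle cell carcinoma 12.0 FPKM.

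In mixed tumors the reference identifier ranged from 0 to 1579 FPKM with a median of 1.60, in complex tumors from 0 to 896.4 with a median of 2.11, and in simple tumors from 0 to 131 with a median of 0.257. Of these tumors, 18 were listed at 0, 90 lay under 1 FPKM, 23 exceeded 10 FPKM and 10 exceeded 100 FPKM. The 10 tumors above 100 FPKM were 2 osteosarcomas, 2 carcinosarcomas, 2 benign mixed tumors, 3 complex carcinomas and 1 simple carcinoma. In normal tissue the range was 0 to 203.5 FPKM with a median of 0.145, and 51 of 64 libraries lay under 1 FPKM. A single normal tissue exceeded 10 FPKM, the next highest having 6.69 FPKM.

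That 1 normal tissue stood apart from the others. It came from a dog with a simple carcinoma, whose tumor held 131 FPKM of the reference identifier, the highest of the 77 simple tumors. The same normal tissue had the highest mean over the members of all 64 (3.23 on the log2 scale) and was the highest normal library for 14 of the 60 members. The tumor and normal libraries of this dog deviated together from their group means with r = 0.404 over 14707 identifiers, the 11th highest value among the 64 dogs. Whether this normal tissue held tumor cells was not tested, and results that rest on normal tissue are given with and without it below.

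**Figure D1:**
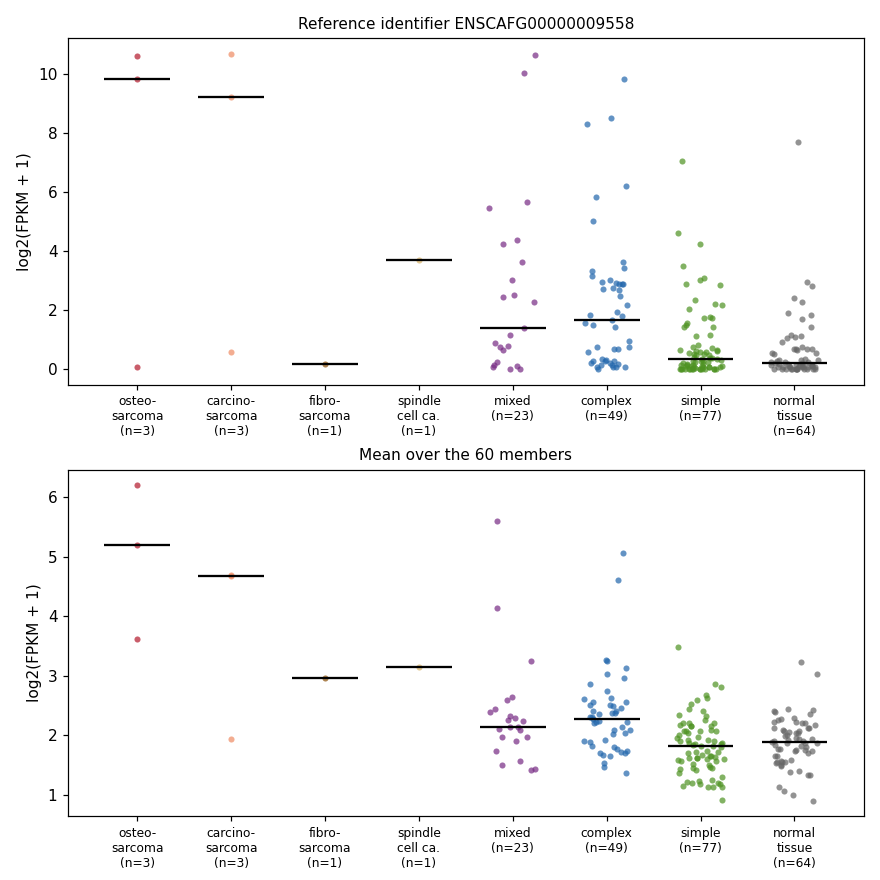
Each point is 1 library and each bar a group median, on a log2(FPKM + 1) axis, for the reference identifier (upper panel) and for the mean over the 60 members (lower panel). In the osteosarcomas and in the carcinosarcomas 2 of 3 tumors were high and 1 low for the reference identifier, 2 carcinosarcoma points nearly coincide in the lower panel, and 1 normal tissue at 203.5 FPKM lies above the other 63.

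Among the members, r ranged from 0.759 for ENSCAFG00000025559 (rank 1) to 0.560 for ENSCAFG00000002026 (rank 60). The first identifier outside, ENSCAFG00000014837 (rank 61), had an r of 0.558, so no gap separated the last member from the next identifier. Over all tested identifiers the median r was -0.01. Spearman's rho was lower than Pearson's r for each of the first 25 members, and over all 60 it had a range of 0.0895 to 0.687 and a median of 0.46. These values chose the members or come from the same tumors and are given as a description.

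ENSCAFG00000025559, the member with the largest r, was nearly silent outside a handful of tumors. It measured 0.0762, 44 and 12.1 FPKM in the 3 osteosarcomas and 12.7, 15.3 and 0.0247 FPKM in the 3 carcinosarcomas. The same osteosarcoma and the same carcinosarcoma that lacked the reference identifier also lacked this transcript. Its median was 0.0235 FPKM in mixed, 0.0438 in complex and 0.0252 in simple tumors, with highest values of 13.6, 22.5 and 3.36 FPKM. It was listed at 0 in 50 tumors, and in normal tissue it reached at most 2.47 FPKM.

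ENSCAFG00000009548, the second member by r, followed the same tumors. It measured 0, 40.5 and 21.3 FPKM in the 3 osteosarcomas and 53.8, 9.48 and 0.0852 FPKM in the 3 carcinosarcomas. Its highest value of all, 686.7 FPKM, occurred in a benign mixed tumor, the one in which the reference identifier measured 1579 FPKM. Its medians were 0.102 FPKM in mixed, 0.0548 in complex and 0.0359 in simple tumors, and the highest normal tissue had 1.62 FPKM. Apart from the few tumors at the top, the levels of both leading members overlapped between all histologies.

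ENSCAFG00000002026, the last member, showed a different profile. It was present in every tumor, with 7.64, 27.7 and 18.0 FPKM in the osteosarcomas, 12.9, 18.5 and 1.16 FPKM in the carcinosarcomas, and medians of 3.94 FPKM in mixed, 4.76 in complex, 3.94 in simple tumors and 4.15 in normal tissue. The ranges of mixed (1.52 to 27.0 FPKM), complex (1.31 to 37.1), simple (0.52 to 17.8) and normal tissue (0.963 to 15.7) overlapped over most of their length.

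The contrast between the first and the last member held in the upper ranks and not over the whole list. In simple tumors, 31 members had a median under 1 FPKM and 29 had a median of at least 1 FPKM. The low members filled 13 of the first 15 ranks, with a median r of 0.637 against 0.601 for the others. Their lowest r was 0.565, against 0.560 for the others, so low members also occurred near the end of the list. The 29 more abundant members had a median level of 4.90 FPKM in simple tumors, up to 270.2 FPKM for the most abundant. Over all 60, 27 members were listed at 0 FPKM in at least 1 tumor, and 1 member was at 0 in 123 of them.

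Members of the same kind correlated with each other in the tumors at a mean pairwise r of 0.579 for the low kind and 0.604 for the abundant kind, and members of different kinds at 0.485. Over all pairs of tested identifiers the mean was 0.0737. In normal tissue, which did not choose the members, the corresponding means were 0.224, 0.381 and 0.198, beside 0.0794 for all identifiers. Without the 1 normal tissue at 203.5 FPKM of the reference identifier, the low kind fell to 0.0795 and the abundant kind had 0.357. The mean for all identifiers was not computed without that tissue. The pairwise values come from the same libraries and are a description without a test.

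Osteosarcoma replicate 1, carcinosarcoma replicate 3 and the fibrosarcoma held under 1 FPKM of the reference identifier, and they differed in their members. In osteosarcoma replicate 1 the abundant members averaged 6.07 on the log2 scale, against a mean of 3.24 ± 0.734 (SD, n = 77) in simple tumors, and 13 of 29 exceeded every normal tissue. The low members averaged 1.33, against 0.498 ± 0.295 (SD, n = 77), and 4 of 31 exceeded every normal tissue. In osteosarcoma replicates 2 and 3, by contrast, 28 and 23 of the 31 low members and 25 and 15 of the 29 abundant members did so. For single libraries, the share of all identifiers above every normal tissue was not computed, here or below. Nothing particular to the members is read from such counts.

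Carcinosarcoma replicate 3 was low for both kinds. Its low members averaged 0.503 and its abundant members 3.46 on the log2 scale, both within the spread of simple tumors, and 1 member of each kind exceeded every normal tissue. Carcinosarcoma replicates 1 and 2 had averages of 3.52 and 3.35 for the low kind and 5.92 and 6.14 for the abundant kind. The fibrosarcoma had low members at 1.01 and abundant members at 5.04, with 6 and 4 members above every normal tissue. The spindle cell carcinoma, with 12.0 FPKM of the reference identifier, had low members at 0.913 and abundant members at 5.53.

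**Figure D2:**
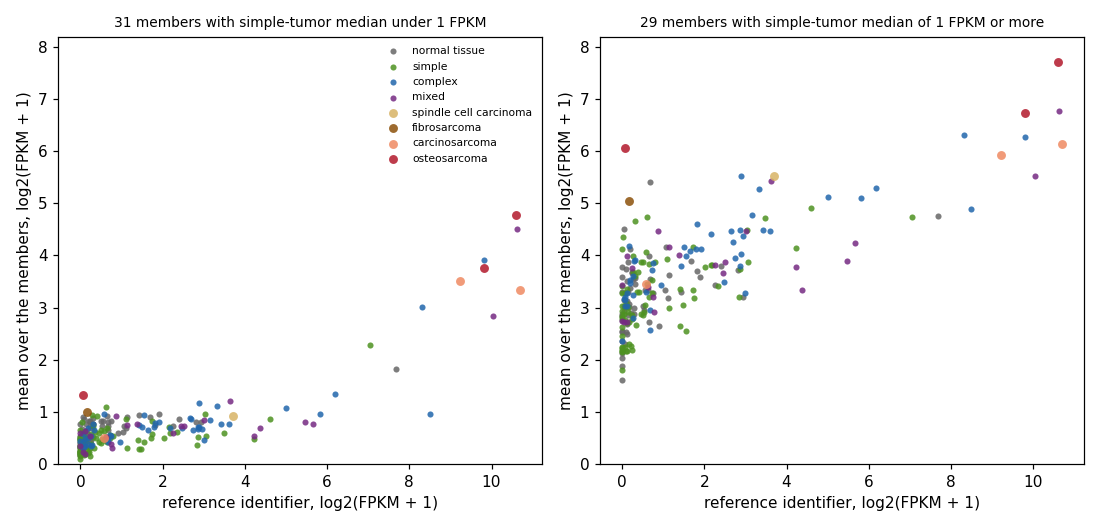
Each point is 1 library, with the reference identifier on the horizontal axis and the mean over the 31 low (left) or 29 abundant (right) members on the vertical axis, all in log2(FPKM + 1). Complex carcinoma replicate 1 had 359.3 FPKM of the reference identifier and low members at only 0.965, and the abundant members were at 6.07 in osteosarcoma replicate 1 and 5.04 in the fibrosarcoma, where the reference identifier was near 0.

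The members were compared between histologies to describe where they were high. The mean over the 60 members, on the log2(FPKM + 1) scale, was 5.01 ± 1.30 (SD, n = 3) in osteosarcomas, 3.77 ± 1.59 (SD, n = 3) in carcinosarcomas, 2.35 ± 0.926 (SD, n = 23) in mixed, 2.35 ± 0.695 (SD, n = 49) in complex and 1.82 ± 0.478 (SD, n = 77) in simple tumors, and 1.89 ± 0.42 (SD, n = 64) in normal tissue. The 3 osteosarcomas had 6.20, 5.20 and 3.62, and all 3 lay above the highest simple tumor (3.48). The carcinosarcomas had 4.68, 4.70 and 1.93, the last within the range of simple tumors. The fibrosarcoma, at 2.96, and the spindle cell carcinoma, at 3.14, were also within that range. Mixed and complex tumors could not be ordered by this mean, and simple tumors and normal tissue differed by less than their spread.

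All 60 members had a higher log2 mean in osteosarcomas than in simple tumors, with differences of 0.35 to 5.85 and a median of 3.24, where the median over all identifiers was -0.14. Of all identifiers, 39.4% had a higher log2 mean in osteosarcomas. The highest of the 6 larger groups was the osteosarcomas for 55 members and the carcinosarcomas for 5. The lowest was the simple tumors for 34, normal tissue for 25 and the complex tumors for 1. In limma's test across all identifiers, 58 of 60 members passed an adjusted p of 0.05 with a log2 difference of at least 1 in the direction of osteosarcoma, where 4.83% of all identifiers were called higher, and none was called lower (6.08% of all, and 0 members at an unadjusted p under 0.05). The tumors' own values chose the members, so nothing is read from these counts.

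For carcinosarcomas, all 60 members were again higher than in simple tumors, by 0.54 to 4.81 with a median of 1.92, and 20 of 60 were called higher where 0.213% of all identifiers were. Of all identifiers, 48% had a higher log2 mean in carcinosarcomas. No identifier was called lower (0% of all, and 0 members at an unadjusted p under 0.05). The carcinosarcoma count changed with the tumors included. Without replicate 1 it was 3, without replicate 2 it was 0, and without replicate 3 it was 36. For osteosarcomas it was 58, 41 and 49 without replicates 1, 2 and 3. The share of all identifiers called in these fits was not recorded, so nothing about the members is read from the changes.

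Between libraries, the number of members above every normal tissue was 17, 53 and 38 in the 3 osteosarcomas and 33, 33 and 2 in the 3 carcinosarcomas. The share of all identifiers was not computed for single libraries, so these counts are a description without a background. The fibrosarcoma had 10 and the spindle cell carcinoma 12. Mixed tumors had 0 to 41 with a median of 4, complex tumors 0 to 35 with a median of 2, and simple tumors 0 to 19 with a median of 1, and 31 of the 77 simple tumors had none. Without the normal tissue at 203.5 FPKM, the counts were 18, 53 and 39 in the osteosarcomas and 34, 36 and 3 in the carcinosarcomas, and the medians 5, 5 and 2 in mixed, complex and simple tumors. All 3 osteosarcomas exceeded every simple tumor for 21 of 60 members, an arrangement found for 0.644% of all identifiers. All 3 carcinosarcomas did so for 0 members and for 0.00686% of all identifiers.

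Osteosarcoma replicate 2 was the highest of all tumors for 28 members, and osteosarcoma replicates 1 and 3 for 4 each. The share of all identifiers that were highest in a given tumor was not computed. Benign mixed tumor replicate 10 was the highest for 5 members. That tumor, with 1579 FPKM of the reference identifier, had a mean over the members of 5.60, second among all libraries to osteosarcoma replicate 2, and 41 members above every normal tissue. Complex carcinoma replicate 14 had 896.4 FPKM, a mean of 5.06 and 35 members above every normal tissue. A high level was thus not confined to tumors diagnosed as sarcomas, although 2 of 23 mixed and 2 of 49 complex tumors exceeded every simple tumor by the mean over the members.

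**Figure D3:**
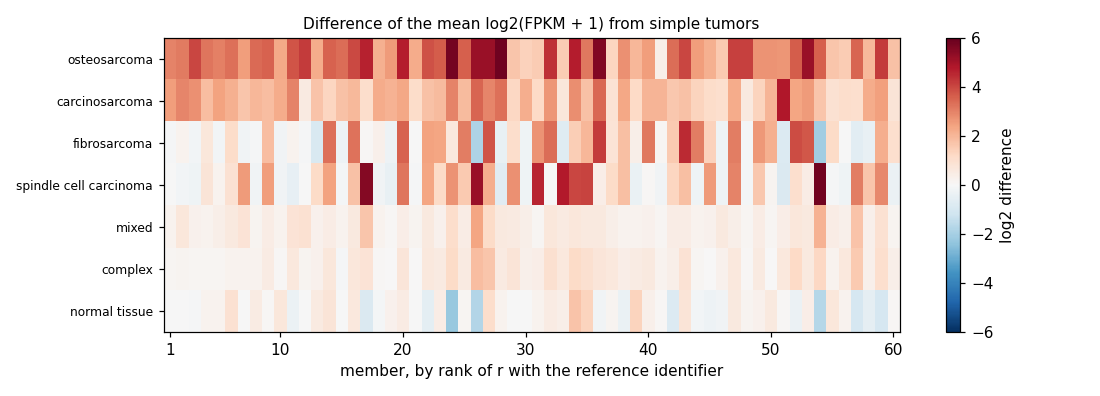
Each column is 1 member in order of r and each row a group. The color gives the difference of the group's mean log2(FPKM + 1) from that of the simple tumors, which is 0.35 to 5.85 in osteosarcomas, 0.54 to 4.81 in carcinosarcomas, 0.09 to 2.36 in mixed tumors, -0.05 to 1.86 in complex tumors and -2.29 to 1.72 in normal tissue, with 1 library each for fibrosarcoma and spindle cell carcinoma.

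Differences of mixed and complex tumors from simple tumors were small for most members and large for a few. The log2 mean was higher in mixed than in simple tumors for all 60 members, by 0.09 to 2.36 with a median of 0.42 (all identifiers, -0.06). It was higher in complex than in simple tumors for 59 members, with a median of 0.51 (all identifiers, 0.05). Of all identifiers, 36.9% were higher in mixed and 65.3% in complex tumors, so the direction in complex tumors was common over the whole table. In mixed tumors 4 members were called higher where 0.0823% of all identifiers were, and in complex tumors 7 members where 0.357% were. No member was called lower in either (0.00686% of all in each, and 0 members at an unadjusted p under 0.05).

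The 4 members called in mixed tumors held ranks 17, 26, 54 and 57 and had differences of 1.68, 2.36, 2.1 and 1.71. The 7 called in complex tumors held ranks 24, 26, 27, 34, 52, 54 and 57, with differences between 1.16 and 1.86. These ranks are named because they were called, after their values were seen. Mixed tumors were higher than complex tumors by log2 mean for 29 of 60 members.

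ENSCAFG00000011534, at rank 26, had the largest difference between mixed and simple tumors. Its median was 23.8 FPKM in mixed tumors (0.0841 to 423.2), 21.3 in complex tumors (0.102 to 421.1), 3.44 in simple tumors (0.00378 to 62.6) and 0.133 in normal tissue (0.00661 to 31.0). The osteosarcomas had 65.3, 313.8 and 236.8 FPKM and the carcinosarcomas 75.9, 51.03 and 35.5 FPKM, all 6 above the medians of mixed, complex and simple tumors. The spindle cell carcinoma had 173.1 FPKM and the fibrosarcoma 0.321 FPKM. Among the 3 sarcomas with under 1 FPKM of the reference identifier, this transcript thus ranged from 0.321 to 65.3 FPKM.

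ENSCAFG00000019985, at rank 24, differed from it in the order of the sarcomas. It measured 598.1, 1375 and 126.1 FPKM in the osteosarcomas, 89.8, 168.3 and 21.0 FPKM in the carcinosarcomas, 12.5 FPKM in the fibrosarcoma and 56.4 FPKM in the spindle cell carcinoma. Its median was 19.8 FPKM in mixed tumors (0.969 to 161.2), 20.9 in complex tumors (0.377 to 228.8), 7.48 in simple tumors (0.162 to 151) and 0.414 in normal tissue (0.0197 to 41.98). Tumor histologies overlapped, and most of each lay above the median of normal tissue.

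Within histologies, benign and malignant tumors were compared as well. The groups follow the deposited diagnosis, which differs from the study's clinical table for the benign or malignant state of some tumors. No identifier of the whole table was called in mixed, complex or simple tumors (0% of all in each direction). At an unadjusted p under 0.05, 0 members were higher and 2 lower in malignant mixed tumors (2.2% and 0.98% of all identifiers). In malignant complex tumors 11 were higher and 0 lower (8.31% and 3.71%), and in malignant simple tumors 2 higher and 0 lower (3.88% and 6.1%). These tumors took part in the choice of members, and the members correlate with each other, so nothing is read from these counts. The median log2 difference of the members, malignant minus benign, was -0.29 in mixed, 0.35 in complex and 0.18 in simple tumors, with median standard errors of 0.408, 0.281 and 0.252. The mean over the members was 2.54 ± 1.32 (SD, n = 10) in benign mixed tumors and 2.21 ± 0.47 (SD, n = 13) in carcinomas in benign mixed tumor. The medians of these 2 groups were 2.20 and 2.15. It was 2.12 ± 0.522 (SD, n = 16) in complex adenomas and 2.46 ± 0.746 (SD, n = 33) in complex carcinomas. In simple adenomas it was 1.71 ± 0.345 (SD, n = 18) and in simple carcinomas 1.86 ± 0.509 (SD, n = 59).

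The correlation with the reference identifier was next described within single histologies. Every member had a positive r within mixed tumors (0.443 to 0.839, median 0.672, n = 23), within complex tumors (0.28 to 0.781, median 0.618, n = 49) and within simple tumors (0.069 to 0.593, median 0.338, n = 77). Over all identifiers the medians were -0.02, 0.02 and 0.01. These tumors were part of the choice of members, and libraries within a histology share their high tumors. Without the osteosarcomas and carcinosarcomas, r over the other 151 tumors was 0.451 to 0.665 in the 52 members that still reached a mean of 0.5 FPKM, and 39 of the 60 would have been chosen.

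The 64 normal tissues were not used to choose the members, and there most members again had a positive r with the reference identifier. Of the 60 members, 58 had a positive r in normal tissue, with a median of 0.329 and a range of -0.10 to 0.764, whereas 51.7% of 14608 identifiers had a positive r with a median of 0.01. Without the normal tissue at 203.5 FPKM, 49 members had a positive r and the median was 0.191, where 51.1% of identifiers were positive with a median of 0.01. A limma regression on the reference identifier called 12 of the 44 members with a mean of at least 0.5 FPKM in normal tissue with a positive slope (adjusted p under 0.05), where 4.48% of all identifiers were called. None was called with a negative slope (1.03% of all, and 0 members at an unadjusted p under 0.05). With no minimum level, 22 of all 60 were called positive, against 3.84% of identifiers.

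Both the count and the background moved when libraries at the edge were left out. Without the normal tissue at 203.5 FPKM, 10 of 44 members were called positive while the share of all identifiers rose to 8.92%, and without the 2 normal tissues farthest from the median, 10 of 44 were called against 6.5%. Of the 12 called members, the one at rank 26 had a slope of 0.37 ± 0.081 (SE), an increase in log2(FPKM + 1) per unit of the reference identifier on the same scale, with an adjusted p of 0.00272 in limma. Its slope without the 2 farthest tissues was -0.03 ± 0.124 (SE). The member at rank 24 went from 0.44 ± 0.0925 to 0.19 ± 0.153 (SE). The slopes of both rested on those tissues.

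For the named members, r in normal tissue was tested by permutation over the 64 libraries, with 6 relations tested and adjusted together. ENSCAFG00000025559 had r = 0.764 (adjusted permutation p = 0.00912) and rho = 0.183 (adjusted permutation p = 0.15), and r was 0.0687 without the 2 tissues farthest from the median, so its relation rested on those 2 libraries. ENSCAFG00000009548 had r = 0.654 and rho = 0.413 (adjusted permutation p = 0.00225 for both), and r was 0.274 without the same 2 tissues (unadjusted permutation p = 0.0307). ENSCAFG00000002026 had r = 0.254 (adjusted permutation p = 0.0583) and rho = 0.333 (adjusted permutation p = 0.0117), and r was 0.289 without them.

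The low and abundant kinds of members had median r values of 0.412 and 0.263 in normal tissue, 30 of 31 and 28 of 29 being positive. Without the normal tissue at 203.5 FPKM the medians were 0.19 and 0.21, with 24 of 31 and 25 of 29 positive. With the surgery year, given for every library, as a covariate, 10 members were called positive. The share of all identifiers called with that covariate was not recorded, so nothing is read from this count.

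**Figure D4:**
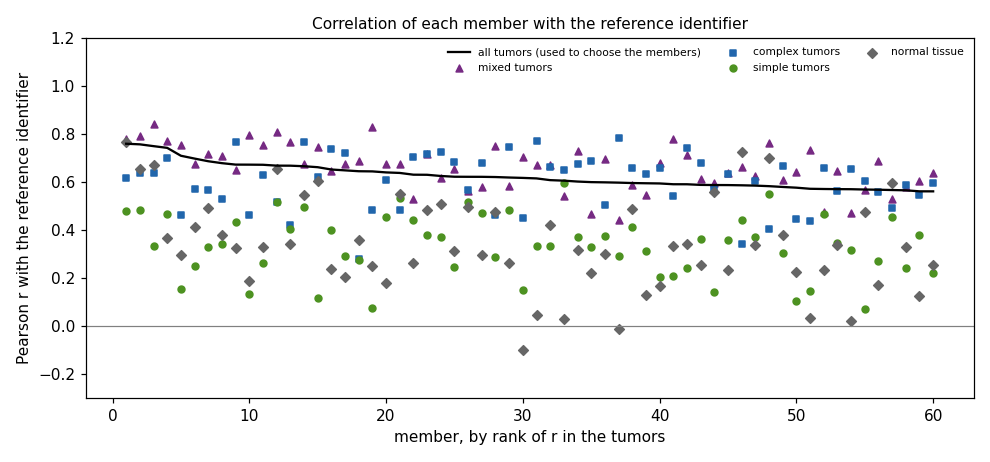
Pearson r of each member with the reference identifier is shown by rank, for all tumors (line, the values that chose the members) and within mixed, complex and simple tumors and normal tissue (points). The points of mixed and complex tumors lie near the line with medians of 0.672 and 0.618, and those of simple tumors and normal tissue lie lower, at 0.338 and 0.329.

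Normal tissue was also compared by the tumor it lay beside. The question was whether the members were higher in the normal tissue of the 9 dogs with mixed tumors than in that of the 28 dogs with simple tumors. No member of 46 tested was called, and 0.00684% of all identifiers were called higher and 0% lower. At an unadjusted p under 0.05, 0 members and 300 of 14611 identifiers passed in limma. The median log2 difference of the members was 0.07, with a median standard error of 0.324, so differences of this size were not detectable with 9 dogs. Beside complex tumors (24 dogs) against beside simple tumors, again no member was called (0% of all in both directions), and 3 of 45 members and 1150 of 14593 identifiers passed an unadjusted p under 0.05 in limma. Without the normal tissue at 203.5 FPKM, which lay beside a simple tumor, no member was called in either comparison.

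Tumors were then set against the normal tissue of the same dog in 64 dogs, with the dog as a block. The tumors took part in the choice of members and the normal tissues did not, so the comparison is independent of that choice only in part. The reference identifier had a median of 1.43 FPKM in these tumors (0 to 1648) and 0.145 FPKM in normal tissue (0 to 203.5). It was higher in the tumor in 45 dogs, lower in 16 and equal in 3, and the log2 difference was 1.59 ± 0.306 (SE), with a limma adjusted p of 1.42e-05.

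Of the 60 members, 58 had a mean of at least 0.5 FPKM over these libraries, and 9 of them were called higher in the tumor, where 1.58% of all identifiers were. None was called lower (3.53% of all). At an unadjusted p under 0.05, 28 members were higher and 9 lower, beside 37.6% and 22.5% of all identifiers. With no minimum level, 9 of all 60 were called, and 9 were called without the dog whose normal tissue had 203.5 FPKM of the reference identifier. The shares of all identifiers called in these fits were not recorded. The members not tested were those at ranks 18 and 21, with tumor medians of 0.118 and 0 FPKM and normal medians of 0.0388 and 0.0134 FPKM. Over the 58 tested, the log2 difference ran from -0.92 to 3.48 with a median of 0.24, beside 0.07 for all identifiers, so most members changed little.

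The 9 members called higher held ranks 17, 22, 24, 26, 42, 52, 54, 57 and 59. No member among the first 15 by r was called, and 13 of these were of the low kind. Adding 1 to the FPKM makes log2 differences between values near 0 smaller, and whether that bears on the calls was not tested. With 0.1 added in place of 1, 16 members were called higher and 4 lower, among them 1 higher and 2 lower of the first 15. The share of all identifiers called in that fit was not recorded. Counted by dog, 38 of the 60 members were higher in the tumor in more dogs than they were lower, and 22 were lower in more dogs. The share of all identifiers was not computed by dog, so nothing is read from these 2 counts. By the fitted log2 difference, 45 of the 58 tested members were above 0, beside 60.1% of all identifiers. The number of dogs with a higher tumor ranged from 10 to 60 over the members, with a median of 36.

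ENSCAFG00000011534, at rank 26, had the largest difference. It had a median of 13.5 FPKM in the 64 tumors (0.00893 to 423.2) and 0.133 FPKM in their normal tissues (0.00661 to 31.0). It was higher in the tumor in 60 of 64 dogs, and the log2 difference was 3.48 ± 0.305 (SE), with a limma adjusted p of 5e-14. ENSCAFG00000019985, at rank 24, had a median of 17.1 FPKM in the tumors (0.403 to 1375) and 0.414 FPKM in the normal tissues (0.0197 to 41.98). It too was higher in 60 of 64 dogs, with a log2 difference of 3.34 ± 0.273 (SE) and a limma adjusted p of 3.39e-15. The ranges of tumor and normal tissue overlapped for both.

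**Figure D5:**
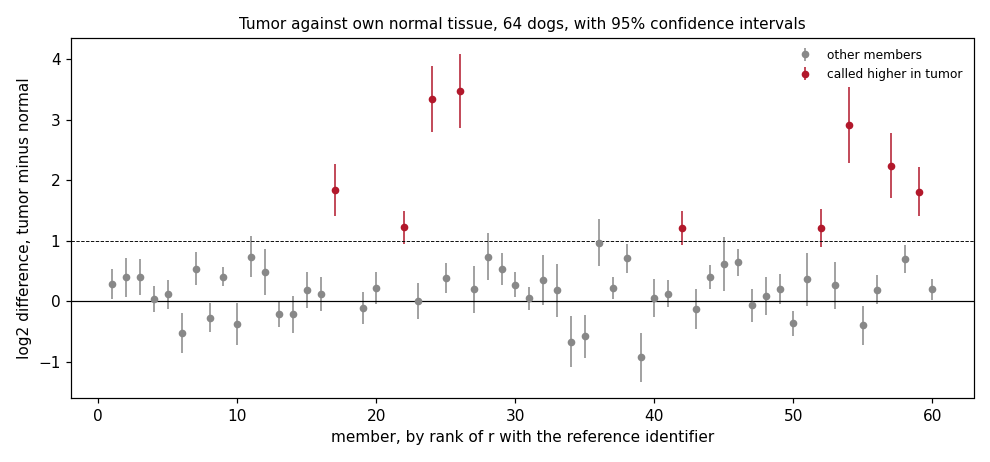
The log2 difference between tumor and own normal tissue in 64 dogs is plotted for the 58 tested members in order of r, with 95% confidence intervals. The 9 members called higher (red) reach 3.48, the others lie between -0.92 and 0.97, and the dashed line marks a difference of 1.

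The differences were also fitted within histologies. In the 24 dogs with complex tumors, 11 members were called higher (3.02% of all identifiers) and 0 lower (3.79% of all, and 4 of 55 members against 15% of all identifiers lower at an unadjusted p under 0.05). In the 28 dogs with simple tumors, 7 were called higher (1.22%) and 1 lower (3.36%). At an unadjusted p under 0.05, 13 of 50 members were higher and 13 lower there, beside 21.1% and 18.3% of all identifiers. Their median log2 difference in simple tumors was 0.0008, with 26 of 50 above 0, beside 0.02 and 53.3% for all identifiers. All 9 members called over the 64 dogs were among the 11 called in complex tumors, and 7 of them were called in simple tumors. The other 2 in complex tumors held ranks 36 and 38. In the 9 dogs with mixed tumors, no identifier of the table was called in either direction (0% of all), and at an unadjusted p under 0.05 13 of 42 members were higher and 3 lower, beside 4.8% and 9.82% of all identifiers.

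The log2 difference of ENSCAFG00000011534 was 4.45 ± 0.784 (SE) in mixed tumors (8 of 9 dogs higher), 4.52 ± 0.407 in complex tumors (24 of 24 dogs) and 1.95 ± 0.351 in simple tumors (25 of 28 dogs), with limma adjusted p of 0.089, 7.98e-08 and 0.000401. For ENSCAFG00000019985 it was 3.16 ± 0.681 in mixed (7 of 9 dogs), 4.15 ± 0.353 in complex (24 of 24 dogs) and 2.27 ± 0.317 in simple tumors (26 of 28 dogs), with limma adjusted p of 0.132, 7.98e-08 and 4.26e-05. The reference identifier itself had differences of 1.58 ± 0.428, 1.90 ± 0.458 and 0.53 ± 0.239 (SE), with limma adjusted p of 0.164, 0.00226 and 0.0966. Whether the differences of complex and simple tumors differ from each other was not tested.

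The member called lower in simple tumors was ENSCAFG00000007136, at rank 39, named here because it was the only one of 50 tested. Of all identifiers 3.36% were called lower there, so this call is no result about the members as a set. Its log2 difference was -1.27 ± 0.298 (SE), with a limma adjusted p of 0.00272, and it was higher in the tumor in 9 of 28 dogs. Over the 64 dogs its difference was -0.92 ± 0.2 (SE), short of the size asked for a call, and it passed that size with 0.1 added (-1.25) and without the dogs with osteosarcoma or carcinosarcoma (-1.01). It had a median of 1.28 FPKM in tumors (0.136 to 17.2) and 4.36 FPKM in normal tissue (0.12 to 48.9). It was lower in the tumor than in own normal tissue in 44 of 64 dogs.

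ENSCAFG00000006073, the identifier set aside from the members, varied among the tumors without the reference identifier. It had 386.2, 352.4 and 113.5 FPKM in the osteosarcomas and 237, 438.6 and 3.099 FPKM in the carcinosarcomas, 292.4 FPKM in the fibrosarcoma and 155.5 FPKM in the spindle cell carcinoma. Its medians were 8.69 FPKM in mixed, 22.3 in complex and 15.1 in simple tumors and 15.6 in normal tissue. Of the 3 sarcomas with under 1 FPKM of the reference identifier, osteosarcoma replicate 1 and the fibrosarcoma thus had 386.2 and 292.4 FPKM of it, and carcinosarcoma replicate 3 had 3.099 FPKM, below the medians of the larger groups.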

How the data were processed

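RNA-seq of 158 CMTs and 64 normal mammary tissues was analysed from the deposited table of FPKM values, which the authors computed per Ensembl gene with Cufflinks 2.1.1 after TopHat2 2.0.9 alignment to the dog genome (CanFam3.1). FPKM keep no read number per gene, so the depth behind a value is unknown. Members were chosen on the tumors with an entry in the study's clinical table, which left out 1 complex adenoma, and groups were taken from the labels' diagnosis. Members and lists were chosen with earlier results of these data known. Named identifiers were the reference, ranks 1, 2, 60 and 61, and the 2 members with the largest called tumor difference. ENSCAFG00000006073 and rank 39 were named in addition, the latter after its values were seen.

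Tests used log2(FPKM + 1) and limma 3.58.1 (R 4.3.3) with intensity trend, fitted over all identifiers with a mean of at least 0.5 FPKM in the libraries compared. Calls needed a Benjamini-Hochberg adjusted p under 0.05 and, except for slopes, an absolute log2 difference of at least 1. All tests were two-sided, and p-values of r and rho in normal tissue (ranks 1, 2 and 60) used 100000 permutations (numpy 2.4.6). Normal tissue and tumor came from the same dog by the labels. Their deviations correlated at a mean r of 0.2 within dogs (lowest -0.25) and -0.003 between dogs. In 15 of 64 dogs the tumor correlated best with its own normal tissue, so the pairing rests on the labels. Fits were tested on simulated data. Alternatives were another pseudocount, no minimum level, rank correlation, shifted medians, surgery year as a covariate, no dog block and libraries left out. RefSeq held 43286 genes, 0 with an Ensembl identifier.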

Additional observations from a re-analysis of the deposited data

Results flagged for a closer look

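In all, 14 combinations of measure and group were checked, over 10 benign mixed tumors or 9 normal tissues beside mixed tumors. By Dixon's criterion, 5 had 1 library far from the others. Chance flags about 5% of independent groups. These combinations shared libraries and correlated members, so the 5 flags are not read against that share. In benign mixed tumor replicate 10, ENSCAFG00000025559 (rank 1) reached 3.86 on the log2(FPKM + 1) scale with the next tumor at 1.56, and ENSCAFG00000009548 (rank 2) reached 9.43 with the next at 4.40. The same tumor held 1579 FPKM of the reference identifier. Its values took part in the choice of members, so its flags are a description.

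In the normal tissues beside mixed tumors, ENSCAFG00000019985 (rank 24) reached 3.95 with the next tissue at 1.69, and ENSCAFG00000011534 (rank 26) reached 3.77 with the next at 1.70, both in the normal library with replicate number 4. ENSCAFG00000009548 had 0.38 in the normal library with replicate number 1 and 0.19 in the next, both below 1 FPKM.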

How the results depend on the processing

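The membership depended on the measure. With Spearman correlation 20 of the 60 members were chosen again, 39 without the osteosarcomas and carcinosarcomas, and 43 to 60 under the other settings that keep all 6 of these tumors or leave out 1 group. Leaving out each of these tumors in turn kept 51 to 60, and leaving out both the osteosarcoma and the carcinosarcoma with under 1 FPKM of the reference identifier, a choice made after seeing the data, kept 52. With a pseudocount of 0.1, 16 members were higher and 4 lower in tumors than in own normal tissue, and 26 had a positive slope in normal tissue. At that setting 11 and 12 were higher in carcinosarcomas and in complex tumors than in simple tumors. The share of all identifiers called at this pseudocount was not recorded, so nothing about the members is read from these counts. With no minimum level 22 had a positive slope. Without the dogs with osteosarcoma or carcinosarcoma 1 member was lower in tumors. The number higher in carcinosarcomas ranged from 0 to 36 when 1 carcinosarcoma was left out. The causes were not tested, and the share of all identifiers called was not recorded for the fits that left tumors or dogs out. In the paired comparison, the fit without the dog block also gave 9 members higher and 0 lower. In all, 53 recomputed counts stayed within 1.5 times their value and 12 did not. Some of the 53 were 0 in both fits. The differences of the reference identifier and the members at ranks 24 and 26 kept sign and call in the paired comparison under all 6 alternatives. The member at rank 39 kept its sign (-1.25 to -0.92) and passed the size for a call under 2 of them. FPKM without read numbers limits what can be said of the low members, whose values lie near 0 in most libraries.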
